A study of Mus musculus with 4 samples.

Results

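The genes of the major histocompatibility complex (MHC, called H2 in mice) and of antigen presentation were followed in CD8+ T cells sorted from mouse lung. They were chosen by symbol: every row whose symbol starts with H2-, together with B2m, Tap1, Tap2, Tapbp, Tapbpl, Psmb8, Psmb9, Psmb10, Psme1, Psme2, Nlrc5, Ciita, Cd74 and Erap1. This gave 59 of the 55401 genes, of which 44 belong to the class I pathway, 14 to the class II pathway and 1, H2-Ke6, to neither. The cells were sorted by CD3 and CD8 from lungs of C57BL/6J mice of 2 models, labelled IPF-LC and LC, in a study of an antibody that depletes CD4+ cells in mice with lung fibrosis. All mice share that strain and no other allele is named. In each model 1 library came from mice given an isotype control antibody and 1 from mice given the CD4-depleting antibody, which makes 4 libraries. The labels spell out neither model. Ages, dose, timing and the number of mice behind a library are not given in the sources used here. No group had a replicate, so no difference between libraries could be set against the spread between animals.

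MHC class I molecules sit on almost all nucleated cells and show peptides from inside the cell to CD8+ T cells. The immunoproteasome cuts proteins into peptides, the TAP transporter moves these into the endoplasmic reticulum, and tapasin loads them onto a heavy chain paired with beta-2-microglobulin. MHC class II molecules show peptides from the endosome to CD4+ T cells and are made chiefly by B cells, macrophages and dendritic cells. Resting mouse T cells express class I strongly and class II little or not at all. Interferon gamma raises both sets, through the transactivators NLRC5 for class I and CIITA for class II.

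The libraries held between 14946569 and 16217672 counts. Levels are TMM-scaled CPM (counts set to a common library size, so that most genes are level between libraries), and levels of different genes are compared only as TPM (transcript abundance corrected for length). Ratios are on the log2 scale, depleted over isotype or IPF-LC over LC, with 0.5 added to each count, and the bracketed range is an exact 95% interval for counting error alone. The 10 CD8 T cell markers, such as Cd8a and Cd3e, were detected in every library and summed to between 6249 and 7415 CPM. Singly, their depletion ratios ran from -0.57 for Cd8b1 to 0.15 for Trac in IPF-LC, with a median of -0.19. In LC they ran from -0.07 for Cd8a to 0.46 for Trbc1, with a median of 0.26. Transcripts of other cell types were present too, most of all those of macrophages, whose values stand beside the class II genes. Of the 59 genes, 33 averaged at least 10 CPM over the libraries, 8 were detected below it and 18 had no count in any library. The 33 comprised 25 of the class I pathway, 7 of the class II pathway and H2-Ke6. Since a gene can pass that mean through 1 high library, counts over the 33, and over the gene lists below, describe those genes only.

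Class I pathway genes stood at similar levels in all 4 libraries. In the IPF-LC pair, depleted over isotype, 0 of 25 were 2-fold or more higher and 1 was 2-fold or more lower, against 4.08% and 6.02% of all 8433 genes with that mean. In the LC pair 0 were past 2-fold either way, against 2.59% and 5.85%. Their median log2 ratio was -0.09 in the first pair and 3.3e-05 in the second, against 0.0016 and 0.057 over all 8433 genes. By these counts the class I genes were not further apart than genes at large. Smaller differences between members are described below, by role.

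The classical heavy chains, H2-K1 and H2-D1, present peptides to CD8+ T cells in this strain. Levels are listed throughout in the order isotype IPF-LC, depleted IPF-LC, isotype LC and depleted LC. H2-D1 stood at 5965, 7076, 5805 and 5830 CPM. Only the depleted IPF-LC library stood apart, with a ratio over its isotype library of 0.25 (0.23 to 0.26), against 0.01 (-0.01 to 0.02) in LC. H2-K1 stood at 2731, 2728, 2171 and 2226 CPM. It followed the model instead: its ratio of IPF-LC over LC was 0.33 (0.31 to 0.35) with isotype antibody and 0.29 (0.27 to 0.31) after depletion. B2m, the light chain that all class I molecules share, stood at 3100, 2922, 2442 and 2643 CPM and was likewise higher in IPF-LC, at 0.34 (0.32 to 0.36) and 0.14 (0.13 to 0.16). Per length, B2m had the highest mean of all 59 genes with 6594 TPM, followed by H2-D1 with 4707 and H2-K1 with 4049. Counts of H2-D1 and H2-K1 were not whole in any of the 4 libraries, so reads may have been divided between related genes. H2-D1 took 68.6, 72.2, 72.8 and 72.4% of the pair's counts. The sum of the pair had a depletion ratio of 0.17 (0.16 to 0.18) in IPF-LC and 0.014 (0.0030 to 0.026) in LC. All 32 class I heavy chain genes together took 1.16, 1.252, 1.07 and 1.05% of the counts. Their summed ratio for depletion was 0.18 (0.18 to 0.19) in IPF-LC and 0.035 (0.025 to 0.044) in LC. The LC value became 0.00074, -0.022 and -0.060 under other scalings, so no direction is given for it, and the IPF-LC value became 0.11 with library totals and with TPM.

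Some heavy chain promoters hold the same short sequence. RefSeq promoter windows (GRCm38.p6, an older build than the GRCm39 of the gene tables), each of 250 bases before and 50 after a start, were at hand for 41 of the 59 genes. They were searched on both strands for TTTCACTTC, the core of the interferon response element of class I genes. It was found in 7 of 32 class I pathway windows, in H2-K1, H2-D1, H2-Q4, H2-Q6, H2-Q7, H2-Q10 and H2-M3, in 0 of 8 class II pathway windows, and in 0.505% of all 32851 windows. Its first base lay between 90 bases before the start, in H2-K1, and 155 before it, in H2-Q10. The core of the interferon-stimulated response element was found in 5 of 32 class I windows, those of H2-T22, H2-T23, B2m, Erap1 and Psme1, in 0 of 8 class II windows and in 3.44% of all. TTCNNNGAA, the gamma-activated sequence, was found in 3 of 32, 1 of 8 and 8.3%. Matches describe these letters only, and say nothing of binding. The 3 most abundant heavy chains are shown from 170 bases before to 30 after the start, 5′ to 3′ on the gene's strand, with TTTCACTTC in capitals.

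H2-K1 (chr17:34000318-34000517, minus strand): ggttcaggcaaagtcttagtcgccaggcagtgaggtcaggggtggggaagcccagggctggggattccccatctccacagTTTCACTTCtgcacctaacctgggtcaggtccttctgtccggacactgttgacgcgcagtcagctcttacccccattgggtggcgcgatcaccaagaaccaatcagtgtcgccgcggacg

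H2-D1 (chr17:35262924-35263123, plus strand): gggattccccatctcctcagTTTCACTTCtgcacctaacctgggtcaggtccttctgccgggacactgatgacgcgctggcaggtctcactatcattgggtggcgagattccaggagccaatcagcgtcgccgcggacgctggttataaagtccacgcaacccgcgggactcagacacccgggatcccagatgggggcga

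H2-Q7 (chr17:35438985-35439184, plus strand): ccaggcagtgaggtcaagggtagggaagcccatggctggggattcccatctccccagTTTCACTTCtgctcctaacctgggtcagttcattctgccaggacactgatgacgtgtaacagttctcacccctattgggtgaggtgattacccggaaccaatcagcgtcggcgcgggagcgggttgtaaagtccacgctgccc

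The H2-Q, H2-T and H2-M genes encode further class I heavy chains, with narrower expression or other ligands. H2-Q7 and H2-Q6 encode nonclassical chains of the Qa-2 group. H2-Q7 stood at 1275, 1453, 1022 and 1116 CPM and H2-Q6 at 609, 958, 630 and 708 CPM. Both were highest in the depleted IPF-LC library. The depletion ratio in IPF-LC was 0.65 (0.62 to 0.69) for H2-Q6 and 0.19 (0.16 to 0.22) for H2-Q7, and in LC 0.17 (0.13 to 0.21) and 0.13 (0.10 to 0.16). These genes are near-identical, and their expected counts were not whole numbers in any library, a sign that reads were divided between genes. H2-Q7 took 67.7, 60.3, 61.9 and 61.2% of the pair's counts, so the gene-by-gene values are uncertain. The sum of the pair does not depend on that division, and its depletion ratio was 0.36 (0.33 to 0.38) in IPF-LC and 0.14 (0.12 to 0.17) in LC. In all, 17 of the 25 class I genes had a count that was not whole in at least 1 library.

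The less abundant H2-Q5, H2-Q4 and H2-Q10 had ratios of opposite sign in the models, as 5 of the 33 genes (15.2%) and 19.0% of all 8433 genes did with both intervals clear of 0 and the sign kept under each scaling. H2-Q5 stood at 42.0, 62.8, 39.9 and 30.3 CPM, with a depletion ratio of 0.58 (0.44 to 0.73) in IPF-LC and -0.40 (-0.57 to -0.22) in LC. H2-Q4, at 15.5, 20.7, 15.2 and 10.6 CPM, had 0.41 (0.17 to 0.66) and -0.52 (-0.82 to -0.23). H2-Q10, at 19.1, 22.8, 18.0 and 14.2 CPM, had 0.26 (0.03 to 0.48) and -0.34 (-0.61 to -0.09). In each of them the depleted IPF-LC library was the highest and the depleted LC library the lowest. H2-Q5 was the 1 class I gene past 2-fold between the depleted libraries, at 2.07-fold (1.05, 0.89 to 1.21). Its TPM gave another picture, with 77.6, 109, 171 and 55.4, so its level in the isotype LC library depends on the unit.

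Among the H2-T and H2-M genes, H2-T23 encodes Qa-1, the ligand of the inhibitory receptor CD94/NKG2A, and H2-M3 presents N-formylated peptides. H2-T23 stood at 372, 284, 303 and 281 CPM, highest in the isotype IPF-LC library, with a depletion ratio of -0.39 (-0.45 to -0.34) in IPF-LC and -0.11 (-0.17 to -0.05) in LC. H2-M3 stood at 72.4, 49.6, 55.7 and 65.1 CPM, and its ratios were opposite: -0.55 (-0.68 to -0.41) and 0.23 (0.09 to 0.36). H2-T22 and H2-T10, which encode ligands of some gamma delta T cell receptors, were higher after depletion in both models, H2-T22 by 0.14 in IPF-LC and 0.22 in LC, and H2-T10 by 0.35 and 0.24. H2-T-ps stood between 12.3 and 18.6 CPM, and its depletion ratios of 0.22 (-0.03 to 0.47) and 0.15 (-0.14 to 0.44) had counting intervals that include 0. H2-K2 was the class I gene past 2-fold in the IPF-LC pair: it stood at 37.2, 18.0, 23.8 and 16.4 CPM, with ratios of -1.05 (-1.26 to -0.84) and -0.53 (-0.77 to -0.30). Its interval reaches to less than 2-fold. Below the mean of 10 CPM, H2-T24 stood at 11.2, 3.21, 9.25 and 5.49 CPM, lower after depletion in both models (-1.79, -2.29 to -1.34, and -0.75, -1.16 to -0.36). H2-M2 had 33, 1, 33 and 0 counts, so that it was at least 11.2-fold lower after depletion in LC by a floor of 3 counts per library. H2-Q1 had at most 7 and H2-Q2 at most 4 counts in a library. The other 15 class I rows, among them H2-T3, H2-Bl, H2-Q3 and the H2-M10 genes, had no count.

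**Figure D1:**
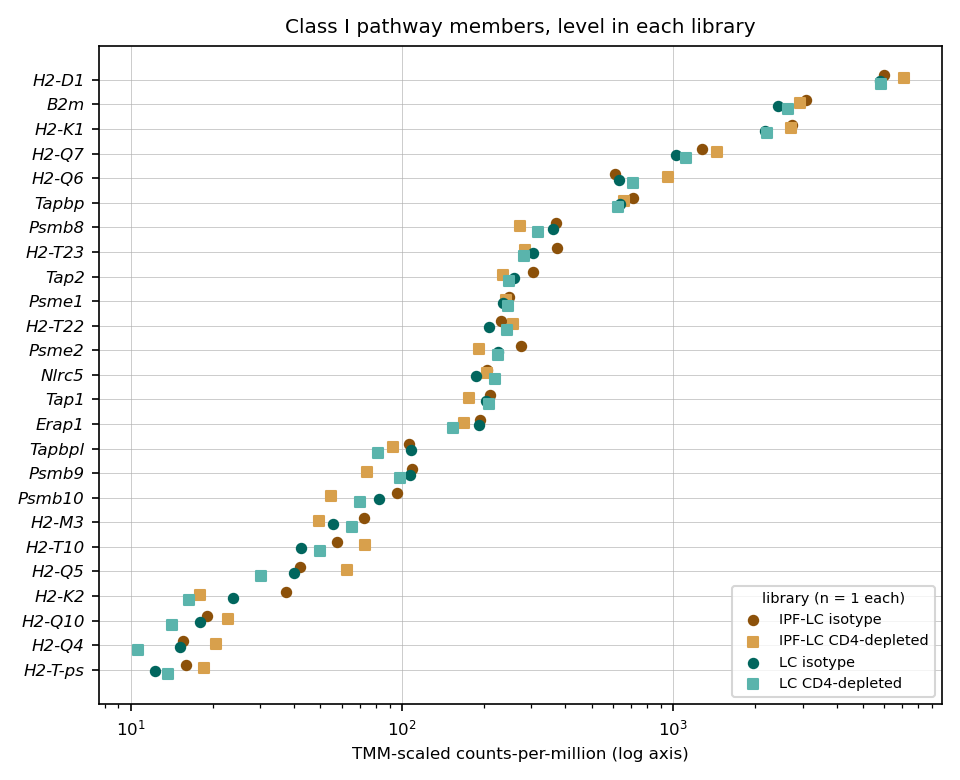
Level of the 25 class I pathway genes averaging 10 CPM or more, in TMM-scaled CPM on a log axis, with 1 point for each of the 4 libraries. The libraries lie close together for most genes, from H2-D1 at 5805 to 7076 CPM down to H2-T-ps at 12.3 to 18.6 CPM. They lie furthest apart for H2-K2, at 16.4 to 37.2 CPM, and H2-Q5, at 30.3 to 62.8 CPM. The depleted IPF-LC library is lowest for Psmb8, Psmb9, Psmb10, Psme2, Tap1, Tap2 and H2-M3, among others.

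The immunoproteasome was lower in the depleted IPF-LC library. Psmb8, Psmb9 and Psmb10 encode the catalytic subunits that replace those of the standard proteasome, and Psme1 and Psme2 the PA28 activator. Psmb10 stood at 95.5 CPM with isotype antibody and 54.7 after depletion in IPF-LC, and at 82.2 and 69.9 in LC. Its depletion ratio was -0.80 (-0.93 to -0.68) in IPF-LC and -0.23 (-0.35 to -0.12) in LC. Psmb9 stood at 109, 74.5, 107 and 97.9 CPM, in the order used above, with -0.55 (-0.66 to -0.44) in IPF-LC and -0.13 (-0.23 to -0.03) in LC. Psmb8, at 368, 273, 361 and 317 CPM, had -0.43 (-0.49 to -0.37) and -0.19 (-0.24 to -0.13). Psme2, at 275, 191, 225 and 225 CPM, had -0.52 (-0.59 to -0.45) in IPF-LC and 3.3e-05 in LC, where its sign changed with the scaling. Psme1 alone was level, between 235 and 247 CPM. All 5 genes had ratios below 0 in IPF-LC, where 49.9% of all 8433 genes did, with a median of -0.52, and none reached 2-fold. For Psme1 the interval included 0 (-0.03, -0.10 to 0.03). The difference between the models' depletion ratios was -0.57 (-0.74 to -0.40) for Psmb10 and -0.52 (-0.62 to -0.43) for Psme2, with an interval for counting error only. Both catalytic subunits Psmb9 and Psmb10 depended on the unit: in TPM the depletion ratio of Psmb9 was -0.21 in IPF-LC and -0.027 in LC, and that of Psmb10 -0.78 and -0.60, which brings the models closer together.

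The 16 listed genes of the standard proteasome and its other activators had a median ratio of 0.07 in IPF-LC and 0.040 in LC. None was past 2-fold in IPF-LC and 1 was at least 2-fold lower in LC, Psme4, which encodes the activator PA200 (-1.39, -1.61 to -1.18). Of all 8433 genes, 4.08% were higher and 6.02% lower by that much in IPF-LC, and 2.59% and 5.85% in LC. The 1 of 16 in LC is thus near the share of genes at large. The standard subunits that Psmb8, Psmb9 and Psmb10 replace were looked up after the values above had been seen. In IPF-LC their depletion ratios were -0.46 for Psmb5, 0.043 for Psmb6 and -0.07 for Psmb7. Psmb8 and its counterpart Psmb5 were thus both lower, while Psmb6 and Psmb7 stood near their isotype level, unlike Psmb9 and Psmb10.

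All 5 peptide transport, trimming and loading genes had ratios below 0 in IPF-LC, where 49.9% of all 8433 genes did. They ranged from -0.37 for Tap2 to -0.11 for Tapbp. Tap1 and Tap2 encode the 2 chains of the TAP transporter. Tap2 stood at 304, 235, 259 and 248 CPM, with a depletion ratio of -0.37 (-0.43 to -0.31) in IPF-LC and -0.07 (-0.13 to -0.0015) in LC. Tap1 stood at 211, 176, 203 and 210 CPM, with -0.26 (-0.34 to -0.19) in IPF-LC and 0.047 (-0.02 to 0.12) in LC, where the sign changed with the scaling. Only the depleted IPF-LC library was low for Tap1. Tapbp, which encodes tapasin, stood between 625 and 713 CPM and differed least, at -0.11 (-0.15 to -0.07) and -0.03 (-0.07 to 0.01). Erap1, the aminopeptidase that trims peptides in the endoplasmic reticulum, stood at 194, 169, 193 and 153 CPM and was lower after depletion in both models, at -0.20 (-0.28 to -0.12) and -0.33 (-0.41 to -0.25). Tapbpl, the tapasin-related editor, stood at 106, 92.7, 108 and 81.8 CPM and was lower in both as well, at -0.20 (-0.30 to -0.09) and -0.40 (-0.51 to -0.30). Nlrc5, the class I transactivator, stood at 205, 206, 187 and 220 CPM. Its depletion ratio was 0.0031 in IPF-LC and 0.23 (0.16 to 0.31) in LC, the latter below 0 on the TPM scale.

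**Figure D2:**
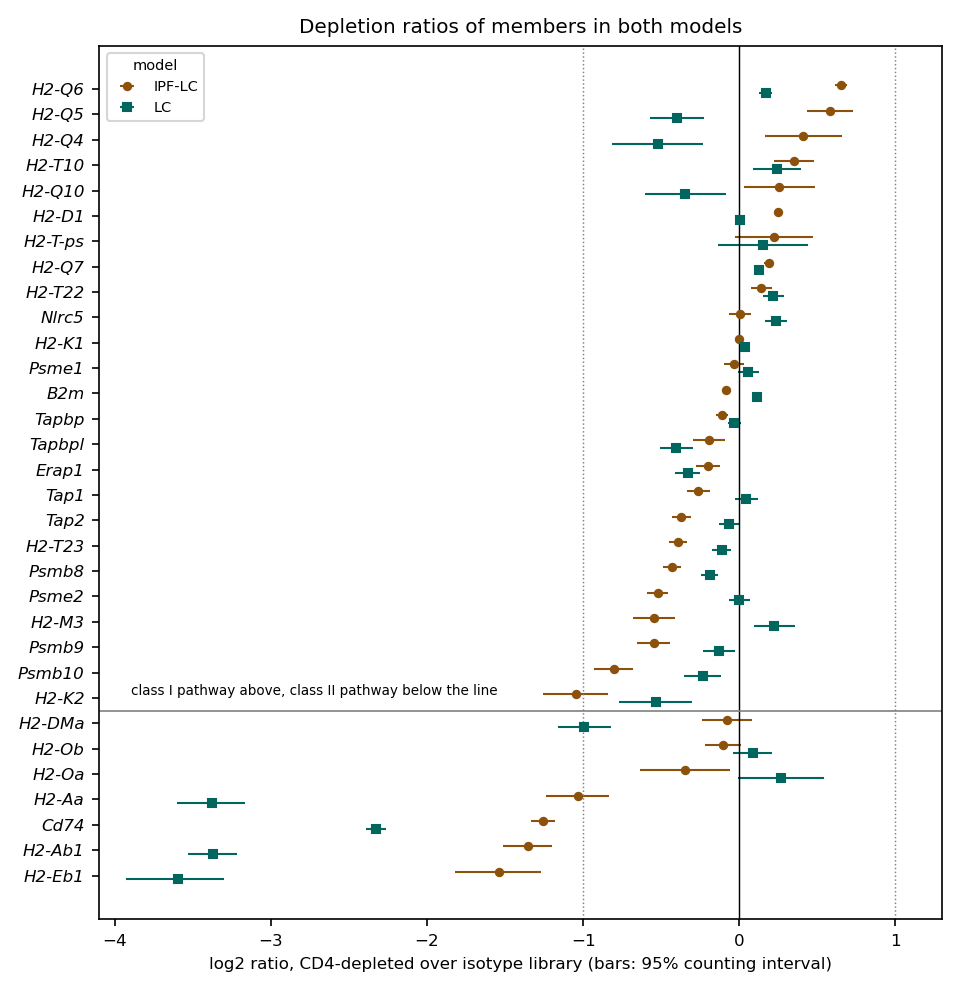
Log2 ratio of the CD4-depleted over the isotype library for the 32 class I and class II genes averaging 10 CPM or more, in IPF-LC (circles) and LC (squares), with bars for the 95% counting interval and dotted lines at 2-fold. Class I genes, above the line, lie between -1.05 and 0.65, while H2-Eb1, H2-Ab1, H2-Aa and Cd74 lie beyond -1 in both models and further out in LC.

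Class I genes were also set side by side between the models. With isotype antibody 0 of 25 were past 2-fold either way, where 1.91% of all genes were so in the direction of IPF-LC and 4.10% in that of LC. After depletion 1 was 2-fold or more higher in IPF-LC and 0 lower, where 3.30% and 2.57% of all genes were. The medians were 0.15 and 0.13, against 0.023 and 0.00020 over all genes. Between the depleted libraries all 5 immunoproteasome and activator genes had ratios below 0, from -0.39 to -0.020, where 4216 of all 8433 genes did, and 10 of the 11 heavy chains besides H2-K1 and H2-D1 had ratios above 0. The intervals of Psme1, H2-T23 and H2-K2 included 0. The exception among the heavy chains was H2-M3 at -0.39 (-0.53 to -0.26). The model comparisons share libraries with the depletion comparisons and add no independent evidence.

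Class II genes differed far more, and not all alike. H2-Aa, H2-Ab1 and H2-Eb1, the chains of the I-A and I-E molecules, and Cd74, the invariant chain that guides class II to the endosome, were lower after CD4 depletion in both models. H2-Oa and H2-Ob, the chains of the H2-O molecule that restrains peptide exchange, differed far less. In each pair the same 4 of 7 genes were 2-fold or more lower, and 0 were 2-fold or more higher. Over all genes 6.02% and 5.85% were lower by that much. The median of the 7 was -1.03 in IPF-LC and -2.32 in LC. In bulk RNA, fewer cells of a type and less RNA per cell cannot be told apart.

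H2-Ab1, the beta chain of I-A, stood at 77.2, 30.2, 238 and 23.0 CPM. It was thus 2.56-fold lower after depletion in IPF-LC (-1.35, -1.51 to -1.20) and 10.4-fold lower in LC (-3.37, -3.53 to -3.22). H2-Aa, its partner, stood at 39.9, 19.5, 127 and 12.2 CPM and was 2.05-fold and 10.4-fold lower (-1.03, -1.24 to -0.83, and -3.38, -3.60 to -3.16). H2-Eb1 stood at 28.0, 9.62, 72.2 and 5.93 CPM and was 2.91-fold and 12.1-fold lower (-1.54, -1.82 to -1.27, and -3.60, -3.93 to -3.30). The isotype LC library was the highest for all 3 genes and the depleted LC library the lowest. H2-Ea, the alpha chain of I-E, had no count in any library. C57BL/6 mice are known not to express that gene, which leaves the H2-Eb1 product without its partner.

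Cd74 stood at 296, 124, 723 and 144 CPM, which was 2.39-fold lower after depletion in IPF-LC (-1.25, -1.33 to -1.18) and 5.01-fold lower in LC (-2.32, -2.39 to -2.26). Unlike H2-Aa, H2-Ab1 and H2-Eb1, it was slightly lower in the depleted IPF-LC than in the depleted LC library (-0.22, -0.31 to -0.13). Per length Cd74 was the most abundant class II gene in each library, for example 421 TPM against 113 for H2-Ab1 and 65.8 for H2-Aa in isotype IPF-LC. In depleted LC these genes had 202, 36.8 and 19.9 TPM. The depletion ratios of the models differed by 2.02 (1.80 to 2.24) for H2-Ab1, 2.34 (2.05 to 2.63) for H2-Aa, 2.06 (1.65 to 2.47) for H2-Eb1 and 1.07 (0.97 to 1.17) for Cd74, with intervals for counting error only.

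H2-Ob stood at 81.6, 75.8, 62.6 and 66.5 CPM, with depletion ratios of -0.11 (-0.22 to 0.01) in IPF-LC and 0.09 (-0.04 to 0.21) in LC. H2-Oa stood at 14.8, 11.6, 13.1 and 15.8 CPM, with -0.35 (-0.64 to -0.06) and 0.27 (-0.0045 to 0.55). Between the highest and the lowest library H2-Ob differed 1.302-fold and H2-Oa 1.36-fold, whereas H2-Ab1 differed 10.4-fold and H2-Eb1 12.2-fold. In the depleted LC library H2-Ob had 53.4 TPM, more than H2-Ab1 with 36.8, and in the isotype LC library it had 47.8 TPM against 380. H2-DMa, a chain of the H2-M molecule that loads peptide onto class II, lay between these patterns. It stood at 41.8, 39.7, 55.3 and 27.8 CPM, with -0.08 (-0.24 to 0.08) in IPF-LC and -0.99 (-1.16 to -0.82) in LC.

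The beta chains of H2-M are encoded by the near-identical H2-DMb1 and H2-DMb2, both below a mean of 10 CPM. H2-DMb1 stood at 11.5, 3.53, 21.2 and 1.47 CPM and H2-DMb2 at 5.18, 1.54, 9.12 and 3.76 CPM. H2-DMb1 had depletion ratios of -1.69 (-2.16 to -1.26) and -3.83 (-4.53 to -3.24), like the I-A and I-E chains, and H2-DMb2 -1.73 (-2.47 to -1.08) and -1.27 (-1.74 to -0.83). Their counts were not whole in any library, and the division between them is uncertain. Ciita, the class II transactivator, had 35 counts in the isotype LC library and 0 in each other library. It was at least 11.8-fold lower after depletion in LC, and at least 11.8-fold lower in isotype IPF-LC than in isotype LC, by a floor of 3 counts per library. H2-Eb2 had 4 counts in 1 library, and H2-Pa and H2-Pb had none.

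**Figure D3:**
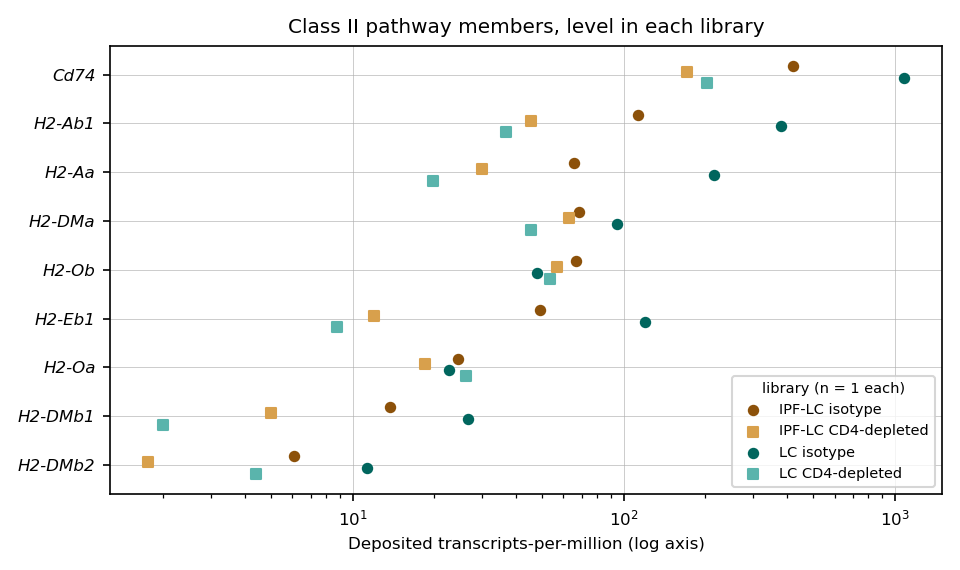
Level of 9 class II pathway genes in deposited TPM on a log axis, with 1 point for each of the 4 libraries. The isotype LC library is far to the right for Cd74, H2-Ab1, H2-Aa and H2-Eb1, from 1084 TPM for Cd74 down to 120 for H2-Eb1, while the 4 libraries nearly coincide for H2-Ob and H2-Oa.

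Promoters of the class II genes that were lower after depletion and of those that differed little are shown because both kinds hold the same short element. CCAAT, the site of the factor NF-Y, was searched for on both strands, and its reverse reads ATTGG. It was found in 7 of 8 class II windows, 24 of 32 class I windows and 37.4% of all windows, so it is common. In H2-Aa, H2-Eb1, H2-Oa and H2-Ob it reads ATTGG and begins 48, 59, 43 and 57 bases before the start. The same 170 bases before and 30 after the start are given, 5′ to 3′ on the gene's strand, with CCAAT or ATTGG in capitals.

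H2-Aa (chr17:34287794-34287993, minus strand): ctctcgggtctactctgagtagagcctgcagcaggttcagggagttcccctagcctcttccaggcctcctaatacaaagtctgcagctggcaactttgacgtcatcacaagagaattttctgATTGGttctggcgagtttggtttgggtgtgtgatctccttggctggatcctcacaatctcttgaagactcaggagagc

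H2-Eb1 (chr17:34305697-34305896, plus strand): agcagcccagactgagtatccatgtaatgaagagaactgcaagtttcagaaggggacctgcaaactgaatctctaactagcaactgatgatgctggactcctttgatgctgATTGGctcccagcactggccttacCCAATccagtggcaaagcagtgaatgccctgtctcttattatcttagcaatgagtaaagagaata

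H2-Oa (chr17:34092209-34092408, plus strand): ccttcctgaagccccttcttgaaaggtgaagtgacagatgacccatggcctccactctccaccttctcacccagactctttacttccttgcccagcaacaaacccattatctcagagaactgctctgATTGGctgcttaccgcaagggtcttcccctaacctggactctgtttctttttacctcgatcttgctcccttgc

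H2-Ob (chr17:34238735-34238934, plus strand): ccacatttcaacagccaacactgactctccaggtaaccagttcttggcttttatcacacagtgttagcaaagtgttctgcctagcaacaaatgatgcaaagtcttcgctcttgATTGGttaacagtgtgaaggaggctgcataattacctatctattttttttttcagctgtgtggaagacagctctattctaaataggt

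Summed markers of antigen-presenting cells were lower in the depleted libraries too, though not every single marker was. For macrophages and monocytes 14 markers gave sums of 2929, 934, 4268 and 55.2 CPM, with 13 of 14 lower 2-fold or more in the IPF-LC pair and 14 of 14 in the LC pair. These counts, and those of the marker lists below, take in every detected marker, also those under a mean of 10 CPM. The share of all detected genes was not computed beside them, so they are descriptions only. Some rest on few counts with an interval that includes 0, as for Mzb1 with 3 counts in isotype LC and 0 in depleted LC. The 9 macrophage markers averaging 10 CPM or more were all lower by 2-fold in both pairs, against 6.02% and 5.85% of all genes with that mean. Some reached it through the isotype libraries, as C1qc did at 15.9, 1.73, 29.6 and 0.064 CPM. The filter thus favours markers that are lower after depletion, and the count describes these 9 only. Marco was at 0 in both IPF-LC libraries, with Siglecf and Fcgr1 also at 0 in the depleted one. None was at 0 in isotype LC, and Adgre1, Marco, Siglecf, Fcgr1, Mertk and C1qa were at 0 in depleted LC. The 9 B cell and plasma cell markers summed to 39.3, 21.8, 35.6 and 24.9 CPM, with 6 of 9 lower by 2-fold and 1 higher in each model. Pax5 was at 0 in 3 libraries. Cd79b, the 1 B cell marker averaging 10 CPM or more, had depletion ratios of -0.49 (-0.82 to -0.17) in IPF-LC and 0.85 (0.51 to 1.20) in LC. The 6 dendritic cell markers summed to 28.9, 15.7, 25.4 and 16.5 CPM, with 3 of 6 lower by 2-fold in IPF-LC and 4 of 6 in LC. Xcr1, of cross-presenting dendritic cells, was higher after depletion in IPF-LC, at 0.768 and 6.35 CPM. Siglech was at 0 in 3 libraries and Flt3 in both depleted ones. Zbtb46, the 1 dendritic cell marker averaging 10 CPM or more, had depletion ratios of -1.62 (-1.93 to -1.33) in IPF-LC and 0.14 (-0.16 to 0.44) in LC. The lists for neutrophils (2.42 to 98.9 CPM), endothelium (136 to 271), fibroblasts (4.72 to 89.8), lung epithelium (14.7 to 67.7) and natural killer cells (9.25 to 43.0) were each highest in the isotype LC library and lowest in the depleted LC library. Pecam1, at 134, 137, 145 and 129 CPM, made up most of the endothelial sum in both depleted libraries. Kdr was at 0 in depleted IPF-LC and Tie1 in depleted LC. The 4 CD4 T cell markers summed to 10.3, 34.8, 9.06 and 47.7 CPM, of which Foxp3, the regulatory T cell factor, made 1.47, 29.3, 3.88 and 32.5. Cd4 itself stood at 4.67, 0, 0.777 and 1.02 CPM. The part of these cells in the class II values was not tested.

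Class II and macrophage sums were apart by different amounts. Between the depleted libraries the macrophage sum stood at 934 CPM in IPF-LC and 55.2 in LC, while H2-Aa, H2-Ab1 and H2-Eb1 with the other classical chains summed to 59.3 and 41.2 CPM, Cd74 to 124 and 144, and H2-Oa with H2-Ob to 87.5 and 82.2. Between the isotype libraries the macrophage sum was 2929 in IPF-LC and 4268 in LC, and the classical chains summed to 145 and 438 CPM, a ratio of -1.59 (-1.66 to -1.52). Lyz2 was the largest part of each macrophage sum, with 2408, 788, 2089 and 33.4 CPM. With isotype antibody its ratio of IPF-LC over LC was 0.21 (0.18 to 0.23), whereas the 9 macrophage markers averaging 10 CPM or more had a median of -1.10. Between the depleted libraries Lyz2 had 4.56 and that median was 2.96. For the model comparison with isotype antibody, 4 of 7 class II genes were at least 2-fold lower in IPF-LC and 0 higher (all genes: 4.10% lower, 1.91% higher), with a median of -1.29. After depletion 0 of 7 were past 2-fold (all genes: 2.57% lower, 3.30% higher), with a median of 0.39.

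**Figure D4:**
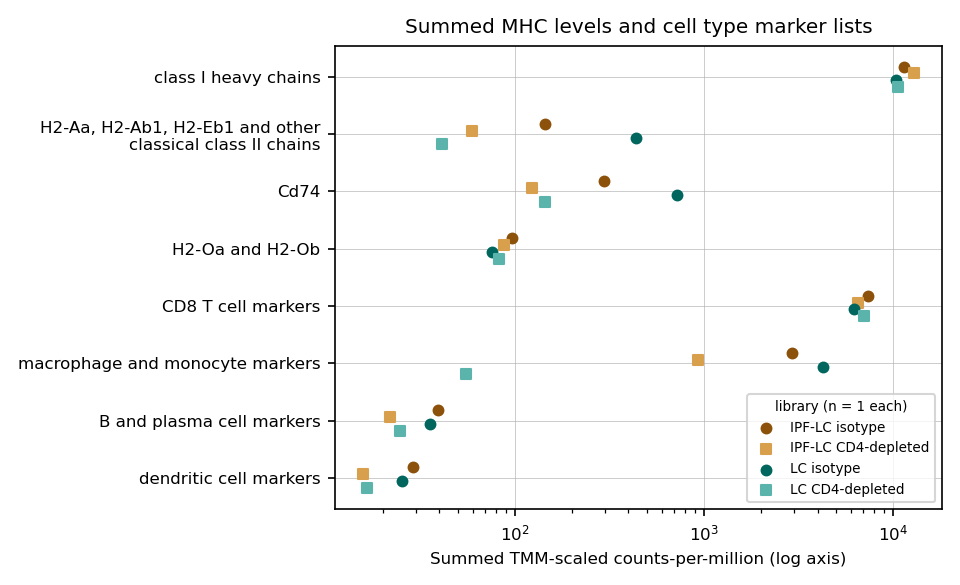
Summed TMM-scaled CPM on a log axis of MHC gene groups and marker lists, with 1 point for each of the 4 libraries. Macrophage markers span 55.2 to 4268 CPM and classical class II chains 41.2 to 438, while class I heavy chains, CD8 T cell markers and H2-Oa with H2-Ob stay in narrow bands.

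Genes of class II processing were lower as well. Of 9 listed, 6 averaged 10 CPM or more, of which 2 were lower by 2-fold in the IPF-LC pair and 6 in the LC pair. For this list and those that follow, the shares of all genes were 4.08% higher and 6.02% lower in IPF-LC, and 2.59% and 5.85% in LC. Ctss, the cathepsin that degrades the invariant chain, had ratios of -1.29 (-1.35 to -1.24) and -1.71 (-1.78 to -1.65), Ctsh -1.06 and -4.27, Lgmn, the asparaginyl endopeptidase, -0.95 and -3.39, and Ctsl -0.64 and -1.62. Of 8 costimulatory ligands 2 had that mean: Cd86 had -0.43 and -1.12, and Cd274, which encodes PD-L1, 0.999 and -0.30. In the 7 genes of the factors that bind MHC promoters, 6 had that mean and 2 were past 2-fold lower in IPF-LC, Nfyb (-1.17, -1.34 to -1.01) and Creb1 (-1.20, -1.32 to -1.08). In LC 0 were past 2-fold. Of the RFX complex, Rfx5 had -0.28 in IPF-LC and -0.53 in LC, and Rfxank 0.38 and -0.41.

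Of the 11 interferon gamma pathway genes, 1 was higher by 2-fold and 1 lower in IPF-LC, and 0 and 2 in LC. Ifng had ratios of -0.09 (-0.29 to 0.11) and -1.29 (-1.52 to -1.06), Irf8 -1.13 and -3.58, the kinase gene Jak2 1.67 and 0.79, and the feedback inhibitor gene Socs1 0.84 and 0.52. None of the 6 chaperones of class I assembly was past 2-fold in either model, nor any of the 4 peptidases measured at that mean. Among class I-like molecules coded outside the H2 complex, 4 of 8 had that mean. Fcgrt, the neonatal Fc receptor, was lower in both models (-1.69 and -1.66) and Ulbp1, a ligand of the activating receptor NKG2D, was higher in both (1.55 and 1.39). Mr1, which presents vitamin B metabolites, had -1.30 (-1.64 to -0.98) in IPF-LC and 0.74 (0.44 to 1.05) in LC. H2-Ke6, which encodes a steroid dehydrogenase and bears its name from its place in the complex, stood at 100.1, 73.8, 65.2 and 61.1 CPM, with -0.44 (-0.55 to -0.33) and -0.09 (-0.22 to 0.04).

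The test made across libraries is an additive model with a term for model and 1 for treatment, which has 1 residual degree of freedom. Of the 37 members that passed its filter, edgeR's quasi-likelihood test called 0 for depletion at a Benjamini-Hochberg adjusted p under 0.05, as it called 0% of all 13050 genes. At an unadjusted p under 0.05 stood 6 members, Cd74, H2-Ab1, H2-Eb1, H2-DMb1, H2-Aa and H2-M2, all lower, where 9.33% of all genes stood. The smallest adjusted p of a member was 0.382, for Cd74, with a log2 change of -1.79. DESeq2 called 4 members, all lower, where it called 3.69% of all genes and 2.92% as lower: Cd74, H2-Ab1, H2-Eb1 and H2-Aa, with adjusted p of 6.94e-09, 6.61e-06, 0.000961 and 0.00161. No class I member was among them, and limma-voom called 0. Each of the 4 was lower in both depletion comparisons. For the model term edgeR, DESeq2 and limma-voom called 0 members, where they called 0%, 0.0383% and 0% of all genes. In the same order, 0, 3 and 2 members had an unadjusted p under 0.05, where 1.85%, 2.03% and 3.22% of all genes did. The tools differ in how they set the spread from that 1 degree of freedom, which is the interaction of model and treatment.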

How the data were processed

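RNA was extracted from CD8+ T cells sorted from lung, turned into cDNA with SMART-Seq v4 chemistry and sequenced as 4 libraries, per the labels' protocols. RSEM 1.3.3, STAR 2.7.11a, MultiQC 1.25.2 and fastp 0.23.4 appear, with no roles, in the submitters' processing notes, as does the build GRCm39. The annotation release is not given in the sources used here, and neither is whether counting used strand. The authors' expected counts estimate how many reads each gene received, and were rounded. Between 5.49 and 5.89% of all 55401 values in a library were not whole. Most of these values were 0, as only 14657 to 16415 genes had a count after rounding. The deposited TPM values, named so per the file headers, are corrected for transcript length. TMM factors (edgeR 4.0.16) were 1.01, 0.961, 1.03 and 0.994 for isotype IPF-LC, depleted IPF-LC, isotype LC and depleted LC. Intervals are exact conditional binomial at 95%, and those of differences between ratios normal on the log scale. Reads carry no molecular identifiers, so intervals and the floor of 3 counts cover counting error only. The additive model was tested with edgeR (the main test), DESeq2 1.42.0 and limma-voom 3.58.1. Only the edgeR test was run on simulated data, at smaller spreads than edgeR estimated for these libraries, so its behaviour at their spread was not checked. Members and lists were chosen with earlier results of these data known. All members averaging 10 CPM or more could be named, others where 5 or fewer were meant, and from each pathway list the 4 with the largest depletion ratios.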

Additional observations from a re-analysis of the deposited data

Results flagged for a closer look

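For 5 class I pathway genes, 15.2% of the 33 members counted, the depletion ratio lay above 0 in one model and below 0 in the other, with both counting intervals clear of 0 and the sign kept under each scaling. By the same rule 19.0% of all 8433 genes had opposite ratios, so the members' share is near that of genes at large. The difference between the models was not tested, since each group is 1 library. H2-Q5 had 0.58 in IPF-LC and -0.40 in LC, H2-Q4 0.41 and -0.52, and H2-Q10 0.26 and -0.34. H2-M3 had -0.55 and 0.23, and B2m -0.085 and 0.11. The 3 H2-Q genes had expected counts that were not whole, so reads may have been divided between them and related genes, while those of H2-M3 and B2m were whole in every library.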

How the results depend on the processing

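No class I or class II gene past 2-fold changed sign under DESeq2 size factors, library totals without TMM, deposited TPM (with 0.1 added) or a prior count of 2, in any of the 4 comparisons. In the IPF-LC pair, depleted over isotype, 1 class I gene was lower by 2-fold, which became 3 with a minimum mean of 1 CPM, 0 with a minimum of 50 CPM and 0 where the whole counting interval had to pass 2-fold. In the LC pair it was 0, and 1 with TPM or with a minimum of 1 CPM. Between isotype libraries TPM gave 1 lower gene in IPF-LC in place of 0. Between depleted libraries the 1 higher gene became 0 with TPM, with a minimum of 50 CPM or by the whole interval, and 2 with a minimum of 1 CPM. The class II counts of 4 lower genes became 2 with a minimum of 50 CPM in both depletion comparisons and between isotype libraries, as fewer genes were counted. They became 6 in both depletion comparisons with a minimum of 1 CPM, 5 in LC with DESeq2 size factors, library totals or TPM, as H2-DMa passed 2-fold, and 3 in IPF-LC by the whole interval. Between depleted libraries a minimum of 1 CPM gave 1 higher and 1 lower in place of 0. DESeq2 called 4 members lower for depletion where edgeR called 0.

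Summed class I heavy chains had depletion ratios in IPF-LC of 0.11 with library totals and 0.11 with TPM, and in LC of 0.00074 with DESeq2 size factors, -0.022 with library totals and -0.060 with TPM. Their IPF-LC over LC ratios with isotype antibody were 0.12 with DESeq2 size factors, 0.11 with library totals and 0.090 with TPM, and after depletion 0.31, 0.25 and 0.26. Summed class II chains with Cd74 had depletion ratios of -0.92 in IPF-LC and -2.14 in LC, which became -0.99 and -2.19 with library totals and -1.04 and -2.33 with TPM. Between isotype libraries their ratio of -1.15 became -1.27 with TPM. The additive model already compares depleted with isotype libraries within each model, and the labels give no replicate numbers. Depth limits H2-Q1, H2-Q2, H2-Eb2, H2-M2 and Ciita, with at most 35 counts.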
